A study of Sus scrofa with 15 samples.

Results

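Interferon-stimulated genes are the genes that cells switch on when interferon reaches their receptors. Type I interferon binds IFNAR1 and IFNAR2, the kinases JAK1 and TYK2 phosphorylate STAT proteins, and STAT2 and IRF9 enter ISGF3, the factor that drives most genes of the group. Lipopolysaccharide (LPS), the outer membrane component of Gram-negative bacteria, can start the same program through the receptor TLR4 and its adaptor TICAM1, which leads through IRF3 to interferon beta, and liver macrophages and hepatocytes are both known to answer interferon. The products of these genes sense foreign RNA, degrade or trap it, block virus particles and tag proteins with the ubiquitin-like protein ISG15.

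A list of 44 such genes was read from the liver count table by pig gene symbol. Of these, 41 had an entry among the 31908 genes of the table, of which 15029 are paired with a symbol, and 3 (IFIT3, GBP5 and XAF1) had none. All 41 had enough reads to be tested, with 12774 genes tested in all. The rule uses names and no threshold on a measured value, but the list was drawn up with earlier results of these data known.

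The livers came from male Duroc x Large White x Landrace piglets in the growing stage, and the sources used here do not give their age in days. The LPS group received 80 μg/kg of LPS into the peritoneal cavity, the CON group received sterile saline, and liver was taken after 4 h in both. Each group gave 3 libraries of the input fraction of an m6A-IP experiment, that is, fragmented polyadenylated RNA kept back before the antibody step, and the immunoprecipitated libraries were not analysed here. The sources used here do not say whether a library holds the RNA of 1 piglet or of several, so p-values measure the spread between these libraries only. Total counts were 5927348 to 10351491 in the CON libraries and 4348478, 5502438 and 19967417 in LPS replicates 1, 2 and 3, so counting error differed between LPS libraries. LPS replicate 3 stood apart in its scaling factor (0.735 against 0.979 to 1.11), and mitochondrial genes held 1.17% of its counts against 1.45% to 3.22% elsewhere. LPS replicate 2 stood apart in the members, as described next. Levels are CPM values, that is, counts relative to a library size scaled by the TMM method, and log2 fold changes are LPS minus CON. A gene was called when its Benjamini-Hochberg adjusted p in edgeR was below 0.05 and its fold change above 1.5.

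None of the 41 genes was called higher or lower in the LPS group. The background was 0.0548% of all tested genes called higher (7 genes) and 0% called lower. At an unadjusted p below 0.05, edgeR gave 1 member higher (ISG15, 2.44% of members) against 6.18% of all genes, and 0 members lower against 6.33% of all genes. The log2 fold change was above 0 in 28 members (68.3%, against 50.5% of all genes) and below 0 in 13, with a median of 0.23 over the members and 0.01 over all genes. It exceeded 1 in 7 members (RIGI, IRF7, OAS2, ISG20, MX1, ISG15 and UBE2L6), which is 17.1% against 7.03% of all genes, and it was below -1 in IFIT2 alone. In 0 members did all 3 LPS libraries lie above all 3 CON libraries, where 6.52% of all genes did. In 2 members, STAT2 and IRF8, all 3 lay below (4.88%, against 9.8% of all genes). The design cannot give an exact two-sided permutation p under 0.1 for a single gene.

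**Figure D1:**
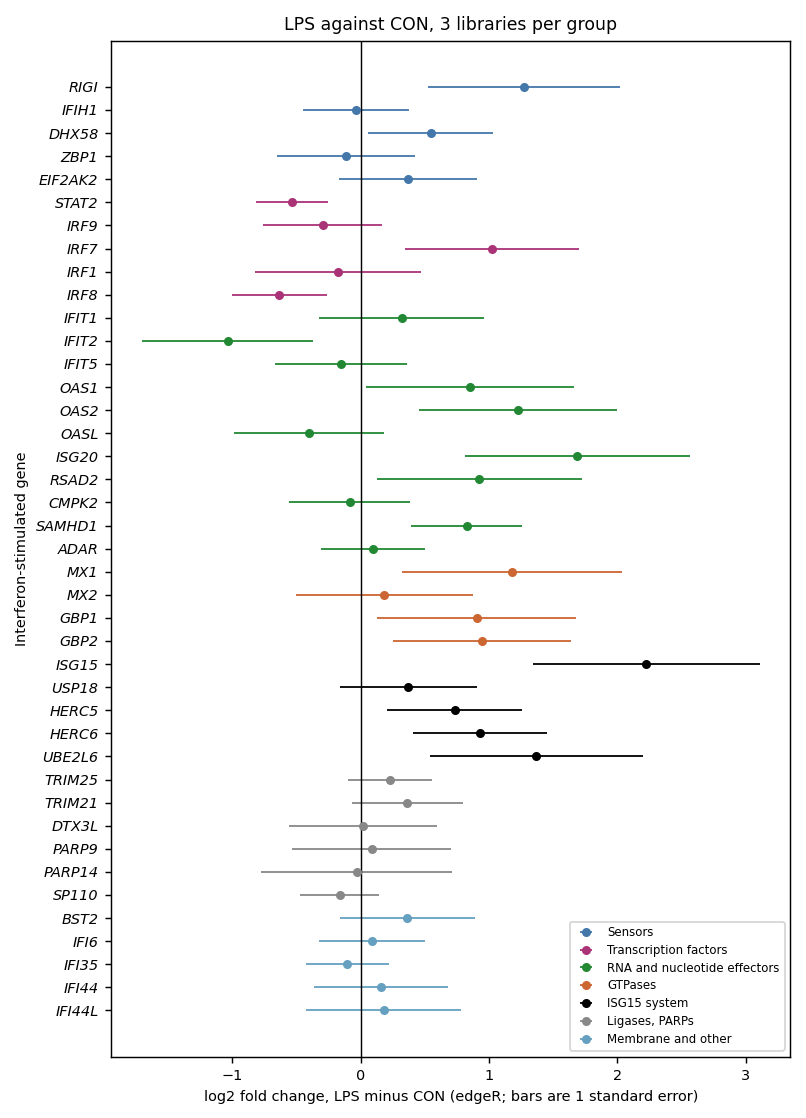
Log2 fold change of the 41 interferon-stimulated genes, LPS minus CON, from edgeR with 3 libraries per group, with bars of 1 standard error and colours for the role of the product. ISG15 lies farthest to the right at 2.23 and IFIT2 farthest to the left at -1.04, and 28 of the 41 points lie to the right of 0.

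Behind these group means, the LPS libraries lay on opposite sides of the CON range. In LPS replicate 3, 31 members (75.6%) lay above all CON libraries, against 34.9% of all genes, and 3 members (7.32%) lay below, against 37.2%. In LPS replicate 2 the picture was the opposite, with 0 members above all CON libraries, against 23.3% of all genes, and 30 members (73.2%) below, against 26.5%. LPS replicate 1 lay between them, with 16 members (39.0%) above, against 32.1% of all genes, and 6 members (14.6%) below, against 37.1%. The 6 were STAT2, IRF1, IRF8, IFIT2, MX2 and PARP14. LPS replicate 2 was the lowest of the LPS libraries in 36 members (87.8%, against 33.2% of all genes) and LPS replicate 3 the highest in 36 (87.8%, against 39.3%). When libraries were scaled to their total counts, LPS replicate 3 lay above all CON libraries in 22 members (53.7%, against 17.1% of all genes), and LPS replicate 2 lay below in 29 (70.7%, against 20.7%).

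**Figure D2:**
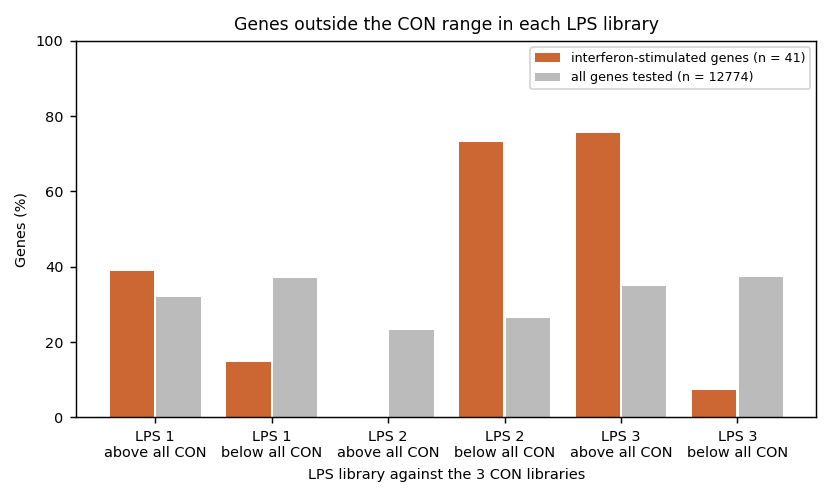
Share of genes above or below all 3 CON libraries in each LPS library, in percent, for the 41 interferon-stimulated genes (orange) and for all 12774 tested genes (grey). The members stand at 75.6% above in LPS replicate 3 and at 73.2% below in LPS replicate 2, where 0 lay above.

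A set of 16 members lay above all CON libraries in LPS replicates 1 and 3 alike (39.0%, against 18.9% of all genes). These were DHX58, EIF2AK2, IRF7, OAS2, ISG20, RSAD2, SAMHD1, ADAR, MX1, GBP1, GBP2, ISG15, HERC5, HERC6, UBE2L6 and TRIM21. In LPS replicate 2, 11 of the 16 lay below all CON libraries, an arrangement seen in 26.8% of members and 3.54% of all genes. The other 5 (OAS2, ISG20, SAMHD1, ISG15 and HERC5) lay within the CON range there. A further 15 members (36.6%, against 13.9% of all genes) lay above the CON range in LPS replicate 3 alone, among them RIGI, OAS1, IFIT1 and BST2. The members that LPS replicate 2 held within the CON range numbered 11 (26.8%), where 50.2% of all genes did so. They were RIGI, OAS2, ISG20, SAMHD1, ISG15, USP18, HERC5, TRIM25, BST2, IFI6 and IFI44.

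The CON libraries were not uniform either. CON replicate 2 was the lowest CON library in 35 members (85.4%, against 33.0% of all genes), and CON replicate 1 or 3 in 4 and 2. The median member stood at 0.29, -0.57 and 0.42 in CON replicates 1, 2 and 3 on a log2 scale relative to the CON mean, and at 0.35, -1.08 and 1.03 in the LPS replicates. The distance between the highest and the lowest library of a group had a median of 1.23 log2 units over the members in the CON group, against 0.67 over all genes. In the LPS group it was 2.25, against 0.99 over all genes. The LPS distance exceeded the CON distance in 36 members (87.8%, against 70.0% of all genes). The widest LPS distances were 4.39 in MX1 and 4.16 in ISG20, and the narrowest was 0.03 in TRIM25.

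**Figure D3:**
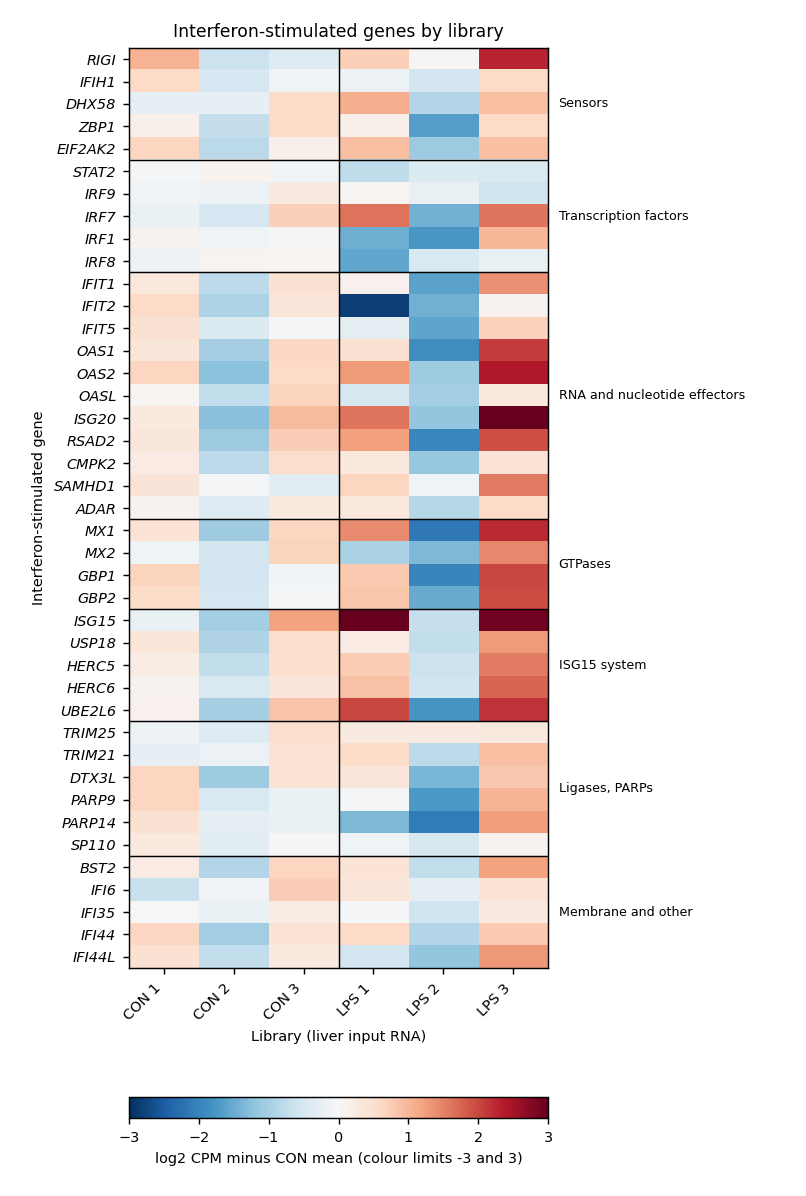
Log2 CPM of each interferon-stimulated gene in each library minus the mean of the CON libraries, grouped by the role of the product, with red above and blue below and colours limited to -3 and 3. LPS replicate 2 is the palest or bluest LPS column for most genes and LPS replicate 3 the reddest, and STAT2 and IRF8 are blue in all 3 LPS columns.

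ISG15 and the enzymes that attach and remove it had positive log2 fold changes in 5 of 5 members, with a median of 0.93. ISG15 itself (ENSSSCG00000040575, chromosome 6 from 63363173 to 63364208 in the coordinates of the deposited table, whose genome build the sources used here do not give) encodes the ubiquitin-like protein that is joined to other proteins. It had 54.1, 30.6 and 143 CPM in CON replicates 1, 2 and 3 and 554, 38.5 and 471 CPM in the LPS replicates. LPS replicates 1 and 3 therefore exceeded every CON library, whereas LPS replicate 2 lay between the lower and the middle CON library, so the groups overlapped. The log2 fold change was 2.23 (standard error 0.88, unadjusted p = 0.0322, adjusted p = 0.356, edgeR), the largest of the 41 genes in that fit. Its mean ± SD was 75.7 ± 59.0 CPM in the CON group and 354 ± 277 CPM in the LPS group (n = 3 each).

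UBE2L6 (ENSSSCG00000023379, chromosome 2 from 13354013 to 13370801) encodes the conjugating enzyme that hands ISG15 on to its ligases. Its levels were 57.2, 26.4 and 95.7 CPM in the CON libraries and 210, 15.2 and 238 CPM in the LPS libraries, with a log2 fold change of 1.37 (standard error 0.83, adjusted p = 0.535, edgeR). Here LPS replicate 2 was the lowest of all 6 libraries and the other LPS libraries were the highest. HERC5, the main ISG15 ligase in humans, and its relative HERC6 sit side by side on chromosome 8 and had log2 fold changes of 0.73 and 0.93. HERC6 had 98.8, 35.2 and 181 CPM in the LPS libraries against 38.9 to 69.2 CPM in the CON libraries, and again LPS replicate 2 lay just below the CON range. USP18, which strips ISG15 from proteins and dampens signaling at IFNAR2, stood at a log2 fold change of 0.37 with a standard error of 0.53, and LPS replicate 3 alone exceeded the CON range, with 54.7 CPM against 11.9 to 32.5 CPM.

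The GTPases MX1 and MX2, which wrap around viral nucleocapsids, and the guanylate-binding proteins GBP1 and GBP2, which coat bacteria and vacuoles, had positive log2 fold changes in 4 of 4 members, with a median of 0.92. MX1 (ENSSSCG00000012077, chromosome 13 from 204843754 to 204868922) had CON levels of 333, 119 and 390 CPM and LPS levels of 664, 56.4 and 1184 CPM in the LPS libraries. The LPS libraries thus held both the highest and the lowest value of the 6, at a log2 fold change of 1.18 (edgeR, standard error 0.86, adjusted p = 0.614). MX2, the next gene on the chromosome, had 55.9, 42.2 and 98.3 CPM in the CON libraries and 31.6, 23.9 and 167 CPM in the LPS libraries. LPS replicates 1 and 2 both lay below its CON range and LPS replicate 3 above it, and the log2 fold change was 0.19 (standard error 0.69). With total count scaling the MX2 value was -0.14. GBP1 had 616, 89.7 and 1417 CPM in the LPS libraries against 239 to 561 CPM in the CON libraries, and GBP2 had 79.8, 15.4 and 174 CPM against 31.3 to 65.3 CPM. Both genes showed the same order of libraries, with LPS replicate 2 below the CON range. The spans of GBP1 and GBP2 overlap on opposite strands, without shared exon bases.

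**Figure D4:**
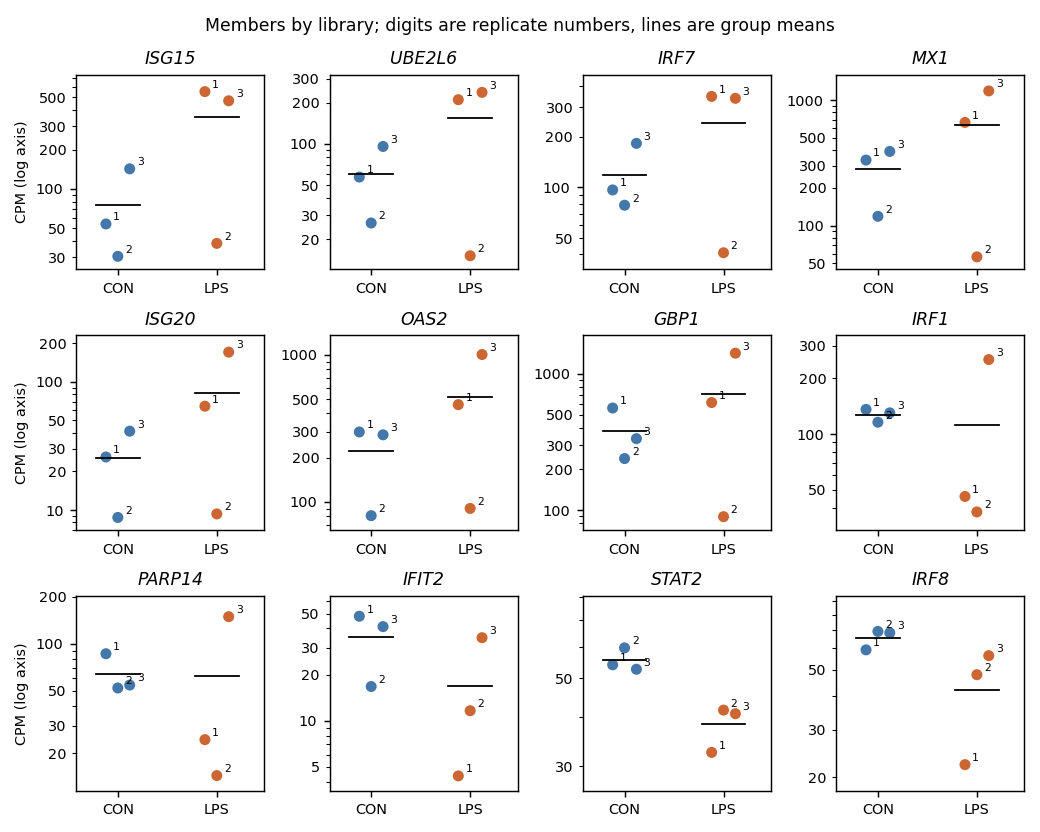
Level of 12 interferon-stimulated genes in each library as CPM on log axes, with CON in blue, LPS in orange, digits for replicate numbers and lines for group means. LPS replicate 2 lies far below LPS replicates 1 and 3 in ISG15 (38.5 against 554 and 471 CPM), UBE2L6, IRF7 and MX1, LPS replicate 3 alone is high in IRF1 and PARP14, and all 3 LPS points lie below the CON points in STAT2 and IRF8.

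Of the RNA and nucleotide effectors, 11 were tested, 7 of them had a positive log2 fold change, and the median was 0.32. ISG20 (ENSSSCG00000024867, chromosome 1 from 191183374 to 191195475), an exonuclease that degrades single-stranded RNA, had 25.9, 8.75 and 41.2 CPM in the CON libraries and 64.5, 9.33 and 171 CPM in the LPS libraries. LPS replicates 1 and 3 exceeded the CON range and LPS replicate 2 stood near its lower end, with a log2 fold change of 1.69 (standard error 0.88, adjusted p = 0.472, edgeR). OAS1 and OAS2 encode oligoadenylate synthetases, which sense double-stranded RNA and activate RNase L. OAS2 had 299, 80.5 and 286 CPM in the CON libraries and 459, 90.1 and 1007 CPM in the LPS libraries, with a log2 fold change of 1.23 (standard error 0.77, adjusted p = 0.554, edgeR). OAS1 stood at a log2 fold change of 0.85 with a standard error of 0.81, and LPS replicate 3 alone was above its CON range (70.5 CPM against 7.97 to 25.1 CPM). OASL, a relative of these synthetases, was low throughout, with 6 to 41 counts per library and a log2 fold change of -0.41.

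RSAD2 encodes viperin, which makes a chain-terminating nucleotide, and CMPK2, its head-to-head neighbour, a nucleotide kinase that supplies it. RSAD2 had 85.6, 32.5 and 114 CPM in the CON libraries and 161, 17.5 and 261 CPM in the LPS libraries (log2 fold change 0.93, standard error 0.80, adjusted p = 0.674, edgeR). CMPK2 had 41.6, 20.2 and 50.8 CPM in the CON libraries and 43.8, 15.7 and 46.7 CPM in the LPS libraries, so its LPS replicates 1 and 3 stayed within the CON range that those of RSAD2 exceeded. SAMHD1, a dNTP hydrolase, had 51.7, 30.3 and 97.7 CPM in the LPS libraries against 26.2 to 43.1 CPM in the CON libraries, with a log2 fold change of 0.83 (standard error 0.43, adjusted p = 0.472, edgeR). Its exons share 44.2% of their bases with other genes, so reads there are uncertain. ADAR, which edits adenosine in double-stranded RNA, had a log2 fold change of 0.10 (-0.09 with total count scaling).

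The IFIT proteins bind viral RNA ends, and their genes lie next to each other on chromosome 14. IFIT1 had 113, 52.0 and 124 CPM in the CON libraries and 97.7, 29.3 and 232 CPM in the LPS libraries. LPS replicate 1 was thus inside the CON range, and the log2 fold change was 0.32 (standard error 0.64; -0.04 in limma-voom). For IFIT2 (ENSSSCG00000010451, chromosome 14 from 101185589 to 101204292), the CON levels were 48.1, 16.7 and 41.1 CPM and the LPS levels 4.36, 11.6 and 34.8 CPM. Its lowest library was LPS replicate 1 and not LPS replicate 2, and its log2 fold change of -1.04 (standard error 0.67, adjusted p = 0.560, edgeR) was the lowest of the 41. For IFIT5 the log2 fold change was -0.15 with a standard error of 0.52.

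The transcription factors were the role group with a negative median, at -0.30, and 4 of its 5 members had a negative log2 fold change. STAT2 (ENSSSCG00000000396, chromosome 5 from 21733035 to 21751354), the ISGF3 subunit that carries the activation domain, had 54.1, 59.7 and 52.7 CPM in the CON libraries and 32.5, 41.6 and 40.7 CPM in the LPS libraries. All LPS libraries lay below all CON libraries, at a log2 fold change of -0.54 (edgeR, standard error 0.28, unadjusted p = 0.0833, adjusted p = 0.470). It ranged from -0.59 to -0.42 when single libraries were left out. STAT2 shares 65.8% of its exon bases with other annotated genes, so part of its reads is uncertain. IRF9, the DNA-binding subunit of ISGF3, had only 12 to 31 counts per library. Its levels were 2.32, 2.19 and 3.07 CPM in the CON libraries and 2.62, 2.13 and 1.57 CPM in the LPS libraries, so the groups overlapped (log2 fold change -0.30, standard error 0.47, adjusted p = 0.828, edgeR). Its exons share 58.8% of their bases with REC8.

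IRF8 (ENSSSCG00000034980, chromosome 6 from 3041645 to 3137549), a factor of macrophages and dendritic cells, had 59.3, 69.4 and 68.5 CPM in the CON libraries and 22.2, 47.9 and 56.4 CPM in the LPS libraries. Its exons share 17.4% of their bases with other annotated genes, so part of its reads is uncertain. IRF8 was the other member with groups that did not overlap, at a log2 fold change of -0.63 (standard error 0.37, adjusted p = 0.516, edgeR). Beside it, the summed level of 8 Kupffer cell or macrophage markers was 1890 to 3160 CPM in the CON libraries and 1350, 2260 and 1840 CPM in LPS replicates 1, 2 and 3, and its part in the IRF8 values was not tested. In whole liver, fewer cells of a type and less RNA per cell cannot be told apart. IRF7 (ENSSSCG00000012853, chromosome 2 from 371606 to 375381), the factor that amplifies interferon alpha genes, had another order, with 96.7, 78.4 and 183 CPM in the CON libraries and 348, 40.9 and 339 CPM in the LPS libraries. Its LPS replicates 1 and 3 were the highest of the 6 libraries and LPS replicate 2 the lowest (log2 fold change 1.02, standard error 0.68, adjusted p = 0.574, edgeR). IRF1, which answers interferon gamma and NF-κB signaling, had 136, 116 and 130 CPM in the CON libraries and 46.0, 38.0 and 252 CPM in the LPS libraries. The CON libraries lay close together and the LPS libraries on both sides of them, with a log2 fold change of -0.18 (standard error 0.65, adjusted p = 0.938, edgeR) that became -1.58 without LPS replicate 3 and 0.24 without LPS replicate 2.

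The sensors had a median log2 fold change of 0.37, with 3 of 5 above 0. RIGI, IFIH1 and DHX58 are cytosolic helicases that detect viral RNA, ZBP1 detects nucleic acid in the Z form, and EIF2AK2 is the kinase PKR, which halts translation. For RIGI (ENSSSCG00000030408, chromosome 10 from 33865838 to 33933455), the CON levels were 2.50, 0.625 and 0.791 CPM and the LPS levels 1.96, 1.15 and 6.28 CPM. Only LPS replicate 3 exceeded its CON range, and the log2 fold change of 1.27 (standard error 0.75, adjusted p = 0.520, edgeR) rests on 4 to 92 counts per library. It was 0.20 without LPS replicate 3. TOPORS and RIGI share 85.5% of the exon bases of RIGI on the same strand, which makes these reads uncertain.

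DHX58 had 34.1, 35.0 and 60.7 CPM in the CON libraries and 89.2, 22.6 and 77.6 CPM in the LPS libraries, and EIF2AK2 had 66.8, 24.1 and 47.6 CPM and 79.2, 20.0 and 79.9 CPM. In both, LPS replicates 1 and 3 lay above and LPS replicate 2 below the CON range, with log2 fold changes of 0.54 and 0.37. IFIH1 and ZBP1 had log2 fold changes of -0.04 and -0.11, and that of IFIH1 was 0.01 with RLE size factors.

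The ligases, poly(ADP-ribose) polymerases and the nuclear body protein SP110 centred near 0, with a median of 0.05 and 4 of 6 above 0. TRIM25, the ubiquitin ligase that activates RIG-I, had 135, 136 and 138 CPM in the LPS libraries, the narrowest spread of the 41 genes, inside a CON range of 85.9 to 162 CPM. PARP14, which modifies proteins with ADP-ribose, had 86.3, 52.2 and 54.5 CPM in the CON libraries and 24.4, 14.4 and 149 CPM in the LPS libraries. LPS replicates 1 and 2 lay below and LPS replicate 3 above its CON range, as in IRF1 and MX2. That arrangement was seen in 3 members (7.32%, against 2.74% of all genes). The log2 fold change of PARP14 was -0.03 (standard error 0.75; 0.01 with RLE size factors and -1.71 without LPS replicate 3). DTX3L and PARP9, which form a ligase pair and are read from opposite strands, had values of 0.02 and 0.09 that became -0.21 each with total count scaling. TRIM21, an antibody receptor in the cytosol, had 0.36, and SP110 had -0.16.

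The membrane proteins and the remaining members had a median of 0.16, with 4 of 5 above 0. IFI6, a mitochondrial and endoplasmic reticulum protein, was the most abundant member per length in either group, at 1285 CPM per kb in the CON group and 1364 CPM per kb in the LPS group. Its libraries overlapped fully, with 727, 1093 and 1911 CPM in the CON group and 1477, 950 and 1535 CPM in the LPS group (log2 fold change 0.09, or -0.04 with total count scaling). On the same per-length scale, ISG15 followed in the CON group with 119 CPM per kb and MX1 with 104 CPM per kb. In the LPS group means, ISG15 stood at 559 and MX1 at 235 CPM per kb, with 874, 60.6 and 744 CPM per kb for ISG15 in LPS replicates 1, 2 and 3 against 48.3 to 225 in the CON libraries. BST2, the tether that holds budding virus at the cell surface, had 139, 62.8 and 242 CPM in the LPS libraries against 56.7 to 164 CPM in the CON libraries (log2 fold change 0.36), and its exons share 37.6% of their bases with CCDC194. IFI35, IFI44 and IFI44L had log2 fold changes of -0.10, 0.16 and 0.18, and those of IFI44 and IFI44L were -0.03 and -0.13 with total count scaling.

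Leaving out each library in turn was one of the alternatives, and the member counts moved most without LPS replicate 2. Because this library was the lowest LPS library in 36 of the 41 genes and in 33.2% of all genes, leaving it out raises the LPS mean of most members by construction. The p-values and shares without it are therefore conditional on the values, the share of all genes is not a matched background, and the counts are a description of the other 5 libraries. EdgeR without LPS replicate 2 called 3 members higher (7.32%, against 3.76% of all genes) and 0 members lower (against 3.45%). ISG15 had a log2 fold change of 2.76 (adjusted p = 0.0183, edgeR), UBE2L6 of 1.91 (adjusted p = 0.0335, edgeR) and IRF7 of 1.53 (adjusted p = 0.0442, edgeR). At an unadjusted p below 0.05, 15 members were higher (36.6%, against 11.3% of all genes) and 0 lower. The same condition holds for DESeq2 without that library, a choice made with the values in view, which called 11 members higher (26.8%, against 5.86% of all genes). These were IRF7, OAS2, ISG20, RSAD2, SAMHD1, MX1, GBP1, GBP2, ISG15, HERC6 and UBE2L6, with log2 fold changes from 1.19 in SAMHD1 to 2.81 in ISG15. With all 6 libraries DESeq2 called 0 members. STAT2 and IRF8, at -0.59 and -0.72 in edgeR without LPS replicate 2, were not called (adjusted p = 0.302 and 0.319, edgeR). With all 6 libraries and no filter on low counts, edgeR called 3 members higher (7.32%, against 2.28% of all genes), namely ISG15 (adjusted p = 3.1e-05, edgeR), ISG20 (adjusted p = 0.00218, edgeR) and UBE2L6 (adjusted p = 0.0306, edgeR). That fit gave similar standard errors to genes of unlike spread. They were 0.399 in ISG20 (0.875 with the filter), 0.393 in OAS1 (0.808) and 0.389 in STAT2 (0.277). Its p-values therefore do not measure the spread of each gene between libraries. Leaving out LPS replicate 3, the highest LPS library in 36 members, works the other way by construction. The median log2 fold change of the members was then -0.17, 0 members were called higher (against 0.31% of all genes) or lower (against 0.151%), and 6 were lower at an unadjusted p below 0.05 in edgeR (14.6%, against 6.23% of all genes).

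Several members are neighbours on a chromosome, which allows their counts to be compared within a library, where library size and scaling cancel. Counting error does not cancel, and some ratios rest on few reads. IFIT2 had 20 counts in LPS replicate 1 and OAS1 had 26 in LPS replicate 2. In each pair the gene with the higher log2 fold change was made the numerator, so ratios higher in the LPS group are favoured by construction. The share among other neighbouring genes was not computed. Among the 10 pairs of neighbours within 100000 bases, the ratio of OAS2 to OAS1 counts was the only one above the CON range in all 3 LPS libraries. It was 14.2, 10.1 and 11.4 in the CON libraries and 20.4, 21.2 and 14.3 in the LPS libraries. OAS1 lies within the span of OAS2 on the same strand, without shared exon bases, and LPS replicate 3 exceeded the highest CON library by little. In LPS replicate 2, where the ratio was highest, OAS1 lay below its CON range and OAS2 near the lower end of its own.

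Other pairs came apart in LPS replicates 1 and 3. The ratio of IFIT1 to IFIT2 was 2.34, 3.11 and 3.01 in the CON libraries and 22.4, 2.52 and 6.67 in the LPS libraries, with 10417 bases between the genes. The ratio of MX1 to MX2, 11796 bases apart, was 5.96, 2.81 and 3.97 and then 21.0, 2.36 and 7.10. For RSAD2 over CMPK2, 5768 bases apart on opposite strands, it was 2.06, 1.61 and 2.23 and then 3.68, 1.11 and 5.59. In these 3 pairs LPS replicates 1 and 3 lay above the CON range. LPS replicate 2 lay below it for MX1 over MX2 and for RSAD2 over CMPK2, and within it for IFIT1 over IFIT2. HERC6 over HERC5 hardly varied, at 1.44 to 1.92 in the CON libraries and 1.62 to 1.81 in the LPS libraries, and GBP2 over GBP1 stayed between 0.116 and 0.172 in all 6.

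**Figure D5:**
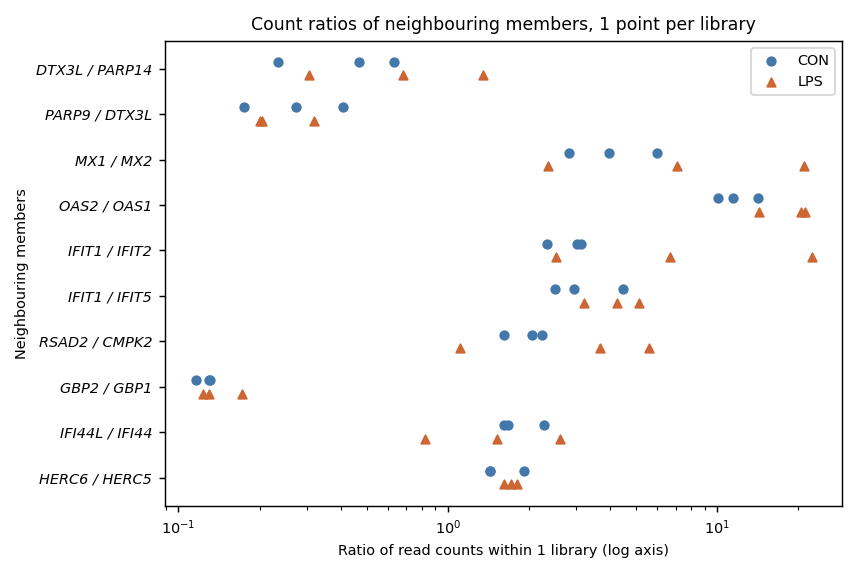
Ratio of read counts of neighbouring interferon-stimulated genes within each library on a log axis, with CON as blue circles and LPS as orange triangles. The numerator is the gene of each pair with the higher log2 fold change. The LPS points spread widely for IFIT1 over IFIT2 (2.52 to 22.4) and MX1 over MX2 (2.36 to 21.0), whereas HERC6 over HERC5 stays between 1.44 and 1.92.

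The genes upstream of this program were read from lists of the pathway, and none of their members was called in either direction. Of the 13 ligands listed, 9 had an entry and 3 were tested (IL15, IL18 and IL27), with 0 past an unadjusted p of 0.05 in edgeR. The interferon genes with an entry had 0 to 10 counts per library. IFNB1, interferon beta, had 0, 1 and 0 counts in the CON libraries and 0 in each LPS library. IFNG, interferon gamma, had 10, 6 and 8 counts in the CON libraries and 0, 6 and 4 in the LPS libraries. Neither passed the filter, and a difference was not detectable at this depth.

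Of the receptors and JAK-STAT genes, all 11 were tested, at a median of 0.69 for the log2 fold change, and 4 were higher at an unadjusted p below 0.05 against the 6.18% of all genes given above. These were IFNGR2 (1.33), IL10RB (1.91), JAK1 (1.14) and IFNAR1 (1.19), with adjusted p from 0.274 to 0.388 in edgeR. In each, LPS replicates 1 and 3 exceeded the CON range while LPS replicate 2 did not. IFNAR1 had 51.1, 34.7 and 48.7 CPM in the CON libraries and 100.1, 32.9 and 174 CPM in the LPS libraries. IFNAR2 and IFNGR1 had 0.69 and 0.30. TYK2, the kinase at IFNAR1, had 44.3, 56.1 and 54.2 CPM in the CON libraries and 25.7, 44.2 and 31.8 CPM in the LPS libraries (log2 fold change -0.60, adjusted p = 0.468, edgeR). The LPS libraries lay below the CON range, as in STAT2 and in 9.8% of all genes. In TYK2 the groups nearly touched, with 44.17 CPM in LPS replicate 2 and 44.33 CPM in CON replicate 1.

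The brakes on JAK-STAT signaling, which are not specific to interferon, had a median log2 fold change of 0.92 over 7 tested genes. At an unadjusted p below 0.05, 3 were higher, against 6.18% of all genes. These were SOCS3 (3.38), CISH (2.39) and SOCS1 (1.83), with adjusted p from 0.23 to 0.364 in edgeR. SOCS1, which blocks JAK kinases, had 81.3, 9.0 and 129 CPM in the LPS libraries against 15.2 to 27.7 CPM in the CON libraries. LPS replicate 2 again lay below the CON range. The list from TLR4 through TICAM1 and the sensors to IRF3 had a median of 0.13 over 10 tested genes, with 0 past an unadjusted p of 0.05 in either direction. TLR4 had a log2 fold change of 0.41, TICAM1 of 0.25 and IRF3 of 0.20, and TBK1 fell below the filter.

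The targets of interferon gamma and GAS type sites had a median of 0.84 over 14 tested genes. At an unadjusted p below 0.05, 4 were higher, against 6.18% of all genes. These were CXCL10 (2.57), PSME2 (1.30), CXCL9 (1.9) and CD274 (2.58), with adjusted p from 0.326 to 0.368 in edgeR. CXCL10, a chemokine that draws T cells, had 244, 193 and 168 CPM in the CON libraries and 543, 104 and 2940 CPM in the LPS libraries (adjusted p = 0.326, edgeR). It too had LPS replicate 2 below and the other LPS libraries above the CON range.

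Cell type markers were read beside these values, since the libraries are whole liver. Hepatocyte markers, all 8 present, summed to 57900 to 73500 CPM in the CON libraries and 36700, 42400 and 70200 CPM in LPS replicates 1, 2 and 3. In LPS replicate 3, APOA1, TF and HNF4A lay above the CON range, ALB, CYP2E1 and SERPINA1 below it, and TTR and CPS1 within it. The CPM of all genes summed to 1363000 in that library, against 921600 to 1024000 in the CON libraries, so its marker sums depend on the scaling. The 6 neutrophil markers with an entry summed to 13.6 to 23.2 CPM in the CON libraries and 166, 72.0 and 299 CPM in the LPS libraries, so LPS replicate 2 lay above the CON range here, though lowest of its group. The markers in this sum did not all move alike. S100A8, S100A12, CSF3R and MMP8 lay above the CON range in all 3 LPS libraries. ELANE (3 to 19 counts per library) and MPO (3 to 13 counts) lay below it in LPS replicates 2 and 3. Markers of red blood cells or platelets gave 69.7 to 95.3 CPM and then 223, 87.5 and 319 CPM. Of these, HBB lay above the CON range in all 3 LPS libraries. ALAS2 lay within, below and above it in LPS replicates 1, 2 and 3. PPBP had 0 to 26 counts per library, with LPS replicate 1 the lowest. The sums of this list and of the neutrophil list were lowest in LPS replicate 2 and highest in LPS replicate 3 among the LPS libraries. This is also the order of the member medians, and the part of these lists in the member values was not tested. EdgeR called 1 of the 4 tested neutrophil markers higher, against 0.0548% of all genes. At an unadjusted p below 0.05, 3 of the 4 were higher, against 6.18% of all genes. T or NK cell markers gave 105 to 132 CPM and then 51.9, 93.1 and 129 CPM, B or plasma cell markers 22.6 to 99.0 CPM and then 17.0, 39.1 and 29.8 CPM, and endothelial markers 137 to 169 CPM and then 112, 149 and 130 CPM. Plasmacytoid dendritic cell markers other than IRF7 gave 51.7 to 62.7 CPM and then 52.8, 72.3 and 84.9 CPM, with the defining markers CLEC4C and LILRA4 lacking an entry. Cholangiocyte or stellate cell markers gave 75.1 to 115 CPM and then 113, 159 and 81.0 CPM. At an unadjusted p below 0.05, 1 of 8 Kupffer cell or macrophage markers was lower, 1 of 4 endothelial markers was higher and 1 lower, 2 of 5 cholangiocyte or stellate cell markers and 1 of 2 red blood cell or platelet markers were higher, and 0 markers of the other lists passed in edgeR. No marker list was 0 in any library as a sum, and the part of cell composition in the interferon-stimulated genes was not tested.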

How the data were processed

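RNA-seq input libraries from piglet liver were analysed, 3 CON and 3 LPS libraries. The deposited table holds raw, whole-number counts made by the authors for 31908 Ensembl pig genes with coordinates and gene length, without normalization. The submitters' processing notes name cutadapt 1.9.3 and HISAT2, and the 2 genome builds they list are not of the pig. The sources used here give neither the build of the table nor the counting program and its strand setting, so reads of overlapping genes and of close paralogs are uncertain although the library kit keeps strand. For CON replicates 1 and 2 the labels hold 2 sequencing entries and the table a single column. Of the sample columns, 0 stayed unmapped.

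A symbol was found for 15029 identifiers. Genes were kept by filterByExpr (minimum count 10), scaled by TMM, and tested on the whole table with the quasi-likelihood test of edgeR 4.0.16 (R 4.3.3, robust), with Benjamini-Hochberg adjustment over 12774 genes. Calls needed an adjusted p below 0.05 and a fold above 1.5. Standard errors were derived from the fold change and the F statistic (the ratio of the former to the root of the latter). CPM values are TMM-scaled, and levels between genes are given per kb of the deposited length. With 4348478 to 19967417 counts per library, precision was lowest in LPS replicate 1. Alternatives were RLE factors, total counts, no filter, limma-voom (limma 3.58.1), DESeq2 1.42.0, a minimum of 10 counts in every library, a replicate block and leaving out each library. DESeq2 without LPS replicate 2, and total counts for the position of LPS libraries against the CON range, were added after the values were seen. Scripts were tested on simulated data.

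The members, role groups, pathway lists and marker lists were chosen with earlier results of these data known and come from general knowledge. Members named with the value of every library are those with an unadjusted p below 0.05, those with groups that do not overlap, the 5 largest log2 fold changes in size, STAT2, and the IRF genes. Other members and pathway genes shown by library, and the neighbouring pairs, were chosen after their values were seen. Named pathway genes are those past an unadjusted p of 0.05, at most 4 per list and direction, and a set of defining genes. No sequences are shown, and some gene values are left out.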

Additional observations from a re-analysis of the deposited data

How the results depend on the processing

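The count of 0 members called lower held in every alternative run. The count of 0 called higher held in every alternative except no filter on low counts (3 members), edgeR without LPS replicate 2 (3 members, with 0 to 3 over the single libraries left out) and DESeq2 without LPS replicate 2 (11 members). The median log2 fold change of the members was 0.02 to 0.61 when a library other than LPS replicate 3 was left out and -0.17 without that library. The count of all genes called higher (7) was 11 with total counts, 536 without the filter, 0 with at least 10 counts in every library, 258 with DESeq2, 2 with limma-voom, 799 with DESeq2 without LPS replicate 2, and 0 to 512 when single libraries were left out. The count called lower (0) was 1 with RLE factors, 1 with total counts, 349 without the filter, 146 with DESeq2, 750 with DESeq2 without LPS replicate 2, and 0 to 470 when single libraries were left out. Members higher at an unadjusted p below 0.05 (1) numbered 13 without the filter (31.7%, against 5.88% of all genes), 3 with DESeq2 (7.32%, against 7.29%), 0 with limma-voom (against 4.7%), 15 with DESeq2 without LPS replicate 2 (36.6%, against 11.9%), and 0 to 15 over single libraries left out, the 15 without LPS replicate 2. Members lower (0) numbered 1 with total counts (2.44%, against 6.5%), 1 without the filter (2.44%, against 5.81%), and 0 to 6 over single libraries left out, the 6 without LPS replicate 3. The cause of these shifts was not tested. The fit without the filter gave similar standard errors to genes of unlike spread, as described above.

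The deviations of same-numbered CON and LPS libraries correlated at -0.24, 0.22 and 0.03 for numbers 1, 2 and 3. Only number 2 exceeded 0.1, so the numbers were not taken as pairs. CON replicate 2 and LPS replicate 2 did deviate together, and each correlated best with the other. The same held for libraries of unlike number, CON replicate 1 with LPS replicate 3 (0.22) and CON replicate 3 with LPS replicate 1 (0.20). With a replicate block, 42 genes were called higher and 9 lower, 0 members were called, and 2 members were higher at an unadjusted p below 0.05 (4.88%, against 4.83% of all genes). The standard error was smaller with the block in 32 of 41 members (median 0.43, against 0.54 without it), for example 0.42 against 0.77 in OAS2 and 0.44 against 0.88 in ISG20. Under the block, IFIT1 was at -0.04, MX2 at -0.29, DTX3L at -0.064, PARP9 at -0.20 and IFI44L at -0.14.

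The sign of some members turned under the settings that follow. Total counts, which moved the median of all genes from 0.01 to -0.12, gave -0.085 for ADAR, -0.14 for MX2, -0.21 for DTX3L, -0.21 for PARP9, -0.037 for IFI6, -0.029 for IFI44 and -0.13 for IFI44L. Limma-voom gave -0.04 for IFIT1, -0.26 for MX2, -0.071 for DTX3L, -0.13 for PARP9 and -0.10 for IFI44L. RLE factors gave 0.009 for IFIH1 and 0.008 for PARP14, and DESeq2 0.008 and 0.003. DTX3L was at -0.01 without the filter and -0.025 with at least 10 counts in every library. DESeq2 without LPS replicate 2 gave 0.25 for IFIH1, 0.35 for ZBP1, 0.27 for IRF1, 0.30 for IFIT5, 0.32 for CMPK2, 0.48 for PARP14, 0.03 for SP110 and 0.15 for IFI35. Ranges over single libraries left out that crossed 0 were IFIH1 -0.42 to 0.32, ZBP1 -0.56 to 0.31, IRF1 -1.58 to 0.24, IFIT1 -0.58 to 0.79, IFIT5 -0.83 to 0.26, OAS1 -0.44 to 1.38, OASL -0.96 to 0.042, CMPK2 -0.38 to 0.27, ADAR -0.18 to 0.42, MX2 -1.23 to 0.63, GBP1 -0.077 to 1.43, USP18 -0.29 to 0.74, DTX3L -0.44 to 0.43, PARP9 -0.77 to 0.54, PARP14 -1.71 to 0.44, BST2 -0.17 to 0.74, IFI6 -0.19 to 0.56, IFI35 -0.31 to 0.10, IFI44 -0.20 to 0.53 and IFI44L -0.90 to 0.58.

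Depth limited RIGI, IRF9 and OASL, with 4 to 92 counts in a library, and the ligands IFNB1 and IFNG, which were not tested. With 3 libraries per group and LPS libraries on both sides of the CON range, a group difference cannot be told apart from the state of single libraries. Counts do not separate reads of overlapping genes, which touches RIGI, STAT2, IRF9, SAMHD1, PARP9 and BST2 most and IRF8 to a lesser extent.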

Other observations

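Interferon-stimulated genes outside the 41 were read as a further list of 27, of which 14 had an entry and 13 were tested. Their median log2 fold change was 0.17, 8 were above 0, and 0 passed an unadjusted p of 0.05 in edgeR in either direction. The median gene of this list stood at 0.02, -0.74 and 0.99 in LPS replicates 1, 2 and 3 relative to the CON mean, and at 0.13, -0.48 and 0.26 in the CON replicates, so LPS replicate 2 and CON replicate 2 were the lowest libraries of their groups here as well. DDX60, a helicase that works with RIG-I, had 27.1, 11.3 and 22.6 CPM in the CON libraries and 22.7, 6.22 and 67.8 CPM in the LPS libraries. MOV10, an RNA helicase, had 88.1, 99.2 and 140 CPM and then 191, 84.1 and 246 CPM, with LPS replicates 1 and 3 above and LPS replicate 2 below the CON range. PML, the scaffold of nuclear bodies, had 184, 137 and 279 CPM and then 238, 91.1 and 400 CPM. In NT5C3A, a nucleotidase, the groups did not overlap, with 12.3 to 14.7 CPM in the CON libraries and 8.29 to 9.35 CPM in the LPS libraries (log2 fold change -0.58, adjusted p = 0.485, edgeR). Of all genes, 9.8% had this arrangement. These genes were singled out after their values were seen.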
